A study of Mus musculus with 12 samples.

Results

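The 38 genes described here belong to sterol and fatty acid metabolism and were chosen by name. They comprise 15 enzymes of sterol synthesis, 4 sterol regulators, 9 genes of fatty acid synthesis, desaturation and elongation, 5 of fatty acid oxidation, and 5 of sterol efflux, nuclear reception and sterol transfer. A probe set was assigned to a gene where the platform annotation gave it exactly 1 symbol, and the probe set with the highest mean over all arrays stood for the gene. By this rule 35 of the 38 genes were measured, among 22180 named genes in all. Idi1 and Scd2 shared their annotation entries with a second symbol and Nr1h2 had no entry of its own, so these 3 were not analysed here. Of the 35, 33 entered the test together with 16667 genes in all, and Scd1 and Fads2 were set aside as dim.

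Transcripts of mouse T cells were measured on 12 Affymetrix arrays of the whole-transcript type, and the study asked how iNKT cells differ between B6 and BALB/c mice. The 5 groups were iNKT17 cells of BALB/c mice (3 arrays), ROR- cells of BALB/c mice (3 arrays), iNKT17 cells of B6 mice (2 arrays), gamma-delta 17 cells of B6 mice (2 arrays) and ROR- cells of B6 mice (2 arrays). iNKT17 and gamma-delta 17 cells are T cells of the interleukin-17 type, and the labels give no further definition of the ROR- cells, no age, no organ and no sorting scheme. The labels name no treatment or engineered allele, mention frozen tissue as the source of the RNA, and do not say whether arrays of 1 group came from separate animals, so the tests measure the spread between these arrays, which may be technical.

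Cholesterol is made from acetyl-CoA through mevalonate and squalene, and the enzymes of this route are switched on together by the transcription factor SREBP-2, which is held back by INSIG proteins when sterols are plentiful and carried to its activation by SCAP. Fatty acids are built by ACLY, ACC1 and fatty acid synthase, then desaturated and elongated, whereas CPT1A admits them to mitochondria for oxidation. Dividing lymphocytes are known to raise sterol and fatty acid synthesis to supply membranes.

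The upstream regions of 6 members that differed between iNKT17 and ROR- cells are shown first, because most of them share a short promoter motif. Each window runs from 250 bases before to 50 bases after a transcription start in RefSeq (build GRCm38.p6), written 5′ to 3′ on the strand of the gene. Capitals mark CCAAT, or ATTGG where the motif lies on the opposite strand, and CACGTG, the E-box. Pmvk lies at chr3:89454291-89454590 on the plus strand, Msmo1 at chr8:64733529-64733828 on the minus strand, Hsd17b7 at chr1:169969156-169969455 on the minus strand, Srebf2 at chr15:82147019-82147318 on the plus strand, Sc5d at chr9:42264251-42264550 on the minus strand and Elovl6 at chr3:129532136-129532435 on the plus strand.
Pmvk: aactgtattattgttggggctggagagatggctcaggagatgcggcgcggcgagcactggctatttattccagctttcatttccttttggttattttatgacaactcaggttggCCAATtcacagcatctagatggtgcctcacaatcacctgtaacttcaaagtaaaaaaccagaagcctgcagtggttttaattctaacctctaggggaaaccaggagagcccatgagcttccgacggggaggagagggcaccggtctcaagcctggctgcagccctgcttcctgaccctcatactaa
Msmo1: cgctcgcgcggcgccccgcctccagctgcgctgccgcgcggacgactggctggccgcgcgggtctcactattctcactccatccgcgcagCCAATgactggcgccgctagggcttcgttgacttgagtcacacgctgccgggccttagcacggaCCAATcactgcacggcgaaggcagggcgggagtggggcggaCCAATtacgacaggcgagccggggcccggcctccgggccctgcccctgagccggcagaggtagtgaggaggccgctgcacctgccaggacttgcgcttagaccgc
Hsd17b7: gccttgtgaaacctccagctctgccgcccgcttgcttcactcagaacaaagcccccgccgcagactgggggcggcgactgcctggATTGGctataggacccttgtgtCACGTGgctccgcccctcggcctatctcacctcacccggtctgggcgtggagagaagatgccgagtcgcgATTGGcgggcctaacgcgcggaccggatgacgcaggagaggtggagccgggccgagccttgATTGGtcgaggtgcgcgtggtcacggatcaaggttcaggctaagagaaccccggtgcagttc
Srebf2: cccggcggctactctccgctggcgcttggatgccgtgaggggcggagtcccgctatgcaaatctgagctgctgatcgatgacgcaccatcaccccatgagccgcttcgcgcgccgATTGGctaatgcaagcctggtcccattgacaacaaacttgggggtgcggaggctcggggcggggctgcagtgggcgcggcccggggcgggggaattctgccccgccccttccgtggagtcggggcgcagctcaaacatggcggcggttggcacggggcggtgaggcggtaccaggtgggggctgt
Sc5d: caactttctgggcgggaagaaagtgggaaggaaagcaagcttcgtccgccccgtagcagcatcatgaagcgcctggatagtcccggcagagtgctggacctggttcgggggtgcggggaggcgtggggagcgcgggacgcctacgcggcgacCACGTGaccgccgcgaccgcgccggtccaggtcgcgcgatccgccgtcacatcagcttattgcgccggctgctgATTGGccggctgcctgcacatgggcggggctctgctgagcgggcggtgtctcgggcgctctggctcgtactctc
Elovl6: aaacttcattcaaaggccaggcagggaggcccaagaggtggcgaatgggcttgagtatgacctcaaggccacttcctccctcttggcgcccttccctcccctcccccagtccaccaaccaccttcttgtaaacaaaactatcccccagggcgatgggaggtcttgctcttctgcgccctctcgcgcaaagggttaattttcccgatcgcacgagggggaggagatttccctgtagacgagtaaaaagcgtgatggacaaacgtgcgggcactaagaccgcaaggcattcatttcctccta
Msmo1 and Hsd17b7 hold 3 CCAAT matches each, Pmvk, Srebf2 and Sc5d hold 1 each, Hsd17b7 and Sc5d also hold an E-box, and Elovl6 holds none of the motifs searched.

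The motifs were searched on both strands in the windows of all genes, and the matches are descriptions of the letters only. CCAAT, the letters of the box bound by the factor NF-Y, occurred in a window of 12 of the 12 sterol enzyme genes that have one, in 20 of the 31 member genes with a window, and in 41.1% of the 27025 genes with windows. The E-box CACGTG was present in 3 of those 12 enzyme genes and 7 of the 31 members, against 8.09% of all genes. TCACNCCAC, a core of the sterol regulatory element, was found in 1 member, Hmgcs1, and in 1.44% of all genes. Only exact matches to these letters were counted, and looser forms of the element were not searched. The count therefore does not show that the other windows lack the element. A match was counted whether or not it overlapped another motif, and a gene counted once if any of its windows held the motif. Idi1, which has a window but was not measured, is among the 12 enzyme genes. Pmvk has 2 windows, and the one printed is the one that holds CCAAT.

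Type 17 markers divided the arrays by their labels. The mean log2 level of 7 measured type 17 markers was 8.19 to 8.44 on BALB/c iNKT17 arrays, against 4.55 to 6.02 on BALB/c ROR- arrays, and 7.91 to 8.27 on B6 iNKT17 and 8.42 to 9.02 on gamma-delta 17 arrays, against 4.49 to 4.75 on B6 ROR- arrays. The array labelled BALB/c ROR- replicate 2 had Il23r, the interleukin-23 receptor, at 7.0, against 3.05 (replicate 1) and 3.37 (replicate 3) in that group. The array labelled gamma-delta 17 replicate 1 had the neutrophil gene S100a8 at 9.30, while it was at most 2.44 elsewhere. That array also stood above gamma-delta 17 replicate 2 in the myeloid gene Lyz2 (6.86 against 3.59), the CD8 gene Cd8b1 (8.24 against 4.30), the thymocyte gene Dntt (5.52 against 3.46) and the NK cell gene Klrd1 (6.03 against 3.69). S100a9, Elane, Mpo and Tyrobp were likewise higher on replicate 1. Other markers of the same cell types differed little between replicates 1 and 2. Among them were Ly6g (3.92 against 3.55), Adgre1 (3.58 against 3.42) and Cd68 (5.85 against 5.98). Rag2 (2.94 against 2.93), Ptcra (4.94 against 4.72) and Ncr1 (4.31 against 4.17) also differed little. The source of these signals was not tested. The T cell receptor delta gene Trdc was not measured by a probe set of 1 symbol. T cell markers averaged 9.51 to 9.70 on iNKT17 and gamma-delta 17 arrays, against 10.07 to 10.25 on ROR- arrays, but they did not move together. Cd2 was at 5.2 to 5.8 on BALB/c iNKT17 arrays, against 9.4 to 9.5 on BALB/c ROR- arrays. On the same arrays Cd3e was at 11.52 to 11.75, against 11.30 to 11.53. Zap70 went the other way, at 9.2 to 9.5 on BALB/c iNKT17 arrays, against 8.5 to 8.8 on BALB/c ROR- arrays. The mean of 4 NK cell markers was 3.56 to 3.94 on iNKT17 arrays and 4.20 to 5.17 on gamma-delta 17 arrays, against 6.12 to 6.44 on ROR- arrays. Klrd1 differed most, at 9.90 to 10.42 on ROR- arrays, against 3.48 to 3.92 on iNKT17 arrays. Tyrobp was at 6.07 to 7.12, against 4.21 to 5.46 on the same arrays. Eomes (3.83 to 4.19 against 2.96 to 3.06) and Ncr1 (3.94 to 4.74 against 3.47 to 3.94) differed less. The part of these differences in the results was not tested. The 5 adipocyte markers averaged 3.09 to 3.35 and 3 hepatocyte markers 3.86 to 4.11 over all arrays, near the level of 3.45 taken as dim.

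**Figure D1:**
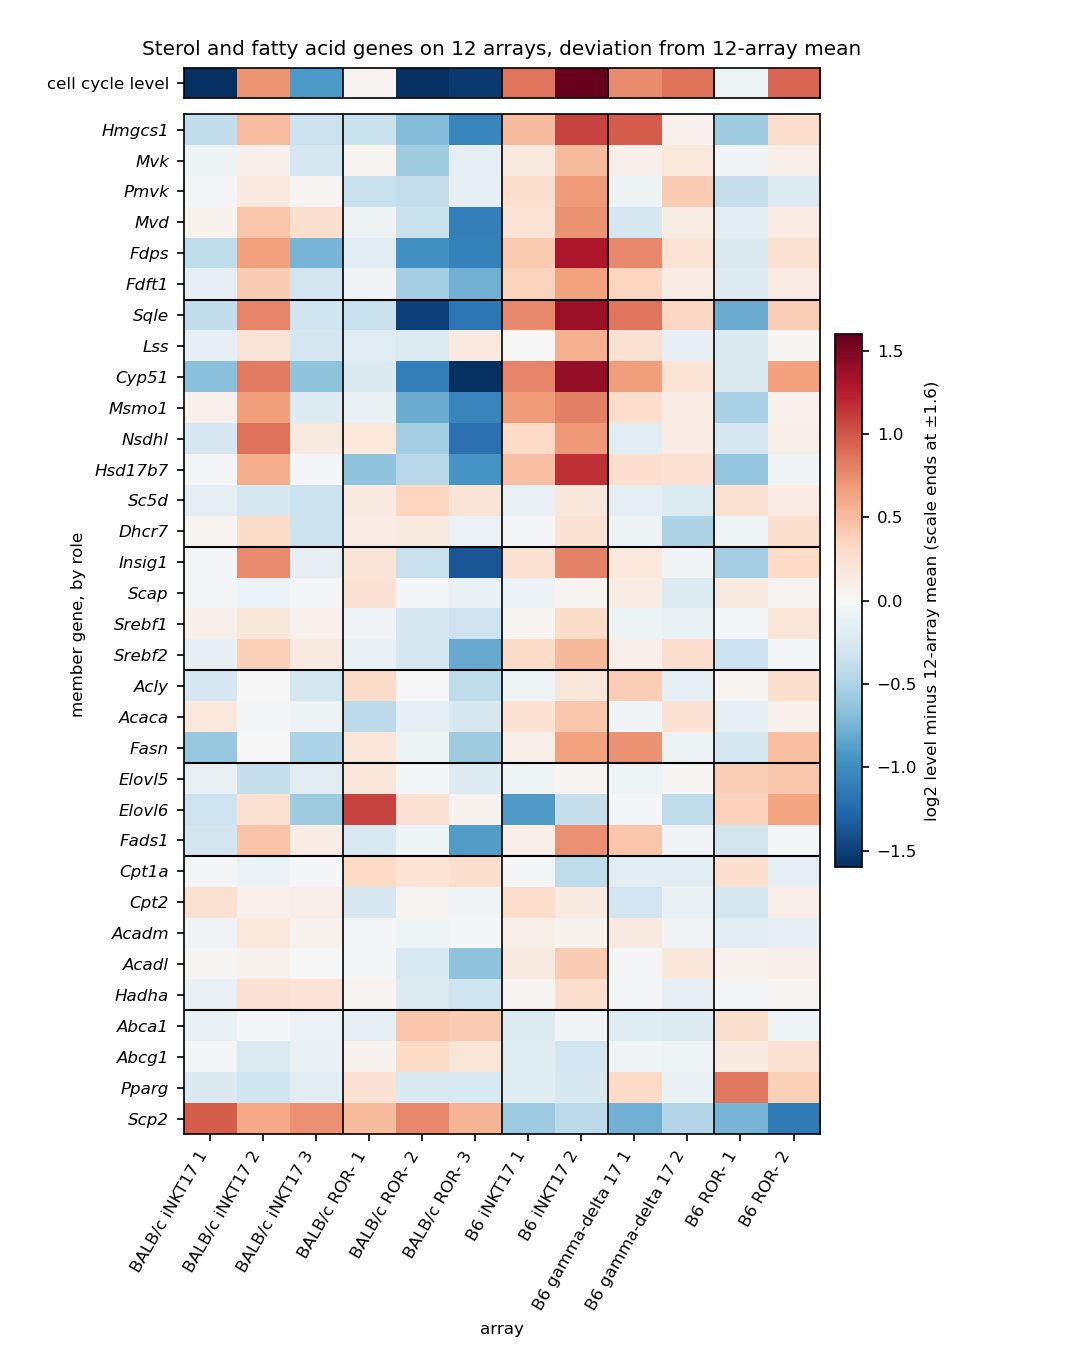
Log2 level of each of the 33 tested members (rows, ordered by role) on each of the 12 arrays (columns) minus its mean over the arrays, with the cell cycle level of the array in the top strip; the colour scale ends at 1.6 in either direction. Most sterol synthesis enzymes are red on the B6 iNKT17 arrays and on BALB/c iNKT17 replicate 2 and blue on BALB/c ROR- replicates 2 and 3, and Scp2 divides the BALB/c from the B6 arrays.

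iNKT17 cells had higher levels of 4 sterol synthesis enzymes (Pmvk, Sqle, Msmo1 and Hsd17b7) and of the regulator Srebf2 than ROR- cells. They had lower levels of the sterol desaturase Sc5d, the fatty acid elongase Elovl6 and the sterol exporter Abcg1. The receptor Pparg is counted below as lower, but it entered the test only through other groups, so its call is no support for a difference. Averaged over both strains, 9 of the 33 tested members passed an adjusted p of 0.05 in limma, 5 higher and 4 lower in iNKT17 cells, whereas 12.3% of all tested genes passed it, 6.49% higher and 5.81% lower. Among the 14 tested sterol enzymes 4 rose, 1 fell and 9 did not pass. Their median log2 difference was 0.65 and 12 of 14 were above 0, against a median of -0.0035 and 49.2% above 0 over all genes. With the cell cycle level of each array as a covariate, described further on, the median was 0.39. Of all 33 members, 6 were higher and 1 was lower on every iNKT17 array than on every ROR- array of the strain, in both strains, against 8.19% and 6.42% of all genes. In these bulk samples a smaller share of cells that make a transcript and less transcript per cell cannot be told apart.

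The opening steps of the sterol route convert acetyl units to squalene, and all 6 measured enzymes had positive differences, of which 1 passed the test. Pmvk, which phosphorylates mevalonate phosphate, stood at 6.19, 6.37 and 6.23 on BALB/c iNKT17 arrays, against 5.85, 5.83 and 6.08 on BALB/c ROR- arrays. In B6 cells it stood at 6.47 and 6.89 on iNKT17 arrays, against 5.84 and 6.0 on ROR- arrays. Every iNKT17 array lay above every ROR- array of its strain. The mean difference was 0.55 ± 0.12 (SE, adjusted p = 0.0107, limma). Leaving out B6 iNKT17 replicate 2 (adjusted p = 0.0628) or B6 ROR- replicate 1 (0.058) ended the call.

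Hmgcs1, the enzyme that supplies the precursor of mevalonate, was at 7.12, 8.02 and 7.18 on BALB/c iNKT17 arrays, against 7.16, 6.82 and 6.48 on BALB/c ROR- arrays. It was at 8.02 and 8.60 on B6 iNKT17 arrays, against 6.95 and 7.80 on B6 ROR- arrays. The groups overlapped in BALB/c, where ROR- replicate 1 exceeded iNKT17 replicate 1, and did not overlap in B6. Its difference of 0.78 ± 0.26 (SE) missed the threshold (adjusted p = 0.0731), which it passed only without B6 ROR- replicate 2 among 23 alternative settings. Of the remaining enzymes, Mvd, which makes isopentenyl diphosphate, differed by 0.62 (adjusted p = 0.0574), Fdps, which joins isoprene units to farnesyl diphosphate, by 0.71 (0.155), the squalene synthase Fdft1 by 0.49 (0.0863) and the mevalonate kinase Mvk by 0.21 (0.389).

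The steps from squalene to cholesterol held the largest differences among the members. Sqle, the squalene epoxidase and a control point of the route, was at 6.45, 7.63 and 6.52 on BALB/c iNKT17 arrays, against 6.49, 5.35 and 5.68 on BALB/c ROR- arrays. On B6 arrays it was at 7.62 and 8.22 in iNKT17 cells, against 6.06 and 7.24 in ROR- cells. The lowest BALB/c iNKT17 array lay just below the highest BALB/c ROR- array, and the B6 groups did not overlap. Sqle rose by 1.15 ± 0.31 (SE, adjusted p = 0.0332, limma). The call ended without BALB/c ROR- replicate 2 (0.0693), BALB/c ROR- replicate 3 (0.069), B6 iNKT17 replicate 2 (0.144), BALB/c iNKT17 replicate 2 (0.0563) or B6 ROR- replicate 1 (0.172), each value an adjusted p. It also ended with a trended robust prior (0.0654).

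Msmo1, a methylsterol oxidase, had levels of 6.30, 6.90 and 6.03 in BALB/c iNKT17 cells, against 6.12, 5.44 and 5.18 in BALB/c ROR- cells. The levels were 6.92 and 7.04 in B6 iNKT17 cells, against 5.72 and 6.30 in B6 ROR- cells. BALB/c groups overlapped through ROR- replicate 1, and the B6 groups were apart. The rise was 0.90 ± 0.21 (SE, adjusted p = 0.0142) and was lost without B6 iNKT17 replicate 2 (0.0578) or B6 ROR- replicate 1 (0.0825).

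Hsd17b7, the 3-keto sterol reductase that acts after Msmo1 and Nsdhl in removing methyl groups, had the lowest adjusted p of the 33 members. It measured 5.24, 5.84 and 5.22 on BALB/c iNKT17 arrays, against 4.61, 4.82 and 4.32 on BALB/c ROR- arrays, and 5.74 and 6.43 on B6 iNKT17 arrays, against 4.64 and 5.21 on B6 ROR- arrays. No ROR- array reached an iNKT17 array, across strains as well as within them. Across strains this was by very little, with BALB/c iNKT17 replicate 3 at 5.22 and B6 ROR- replicate 2 at 5.21. The mean difference was 1.01 ± 0.18 (SE, adjusted p = 0.00308), and it passed the threshold under all 23 alternative settings, with differences of 0.83 to 1.18.

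Cyp51, the sterol 14-demethylase whose loss leaves lanosterol unprocessed, ranged more widely than any other sterol enzyme. Its levels were 5.57, 7.08 and 5.60 on BALB/c iNKT17 arrays, against 6.01, 5.14 and 4.55 on BALB/c ROR- arrays, and 7.02 and 7.65 on B6 iNKT17 arrays, against 6.01 and 6.89 on B6 ROR- arrays. BALB/c ROR- replicate 1 lay above 2 of the 3 BALB/c iNKT17 arrays, and the difference of 0.87 ± 0.35 (SE) did not pass (adjusted p = 0.152). Nsdhl, which removes a carboxyl group from the sterol ring, differed by 0.68 (adjusted p = 0.131), and the lanosterol synthase Lss by 0.20 (0.48).

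The last steps of the route did not follow the earlier ones. Sc5d, the sterol C5-desaturase, was at 7.64, 7.54 and 7.45 on BALB/c iNKT17 arrays, against 7.94, 8.14 and 8.01 on BALB/c ROR- arrays, and at 7.68 and 7.98 on B6 iNKT17 arrays, against 8.04 and 7.93 on B6 ROR- arrays. The BALB/c groups were apart, and the B6 groups overlapped. Sc5d fell by 0.32 (SE 0.09, adjusted p = 0.0391), a call that ended when any of 8 of the 12 arrays was left out, with adjusted p between 0.0507 and 0.166: BALB/c ROR- replicate 2, BALB/c iNKT17 replicates 2 and 3, both gamma-delta 17 arrays, both B6 ROR- arrays and B6 iNKT17 replicate 1. It also ended with array medians centred (adjusted p = 0.0822), with only the groups compared in the fit (0.0509) or with replicate number as a block (0.063). Dhcr7, the reductase of the final step, differed by -0.03 (adjusted p = 0.944).

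**Figure D2:**
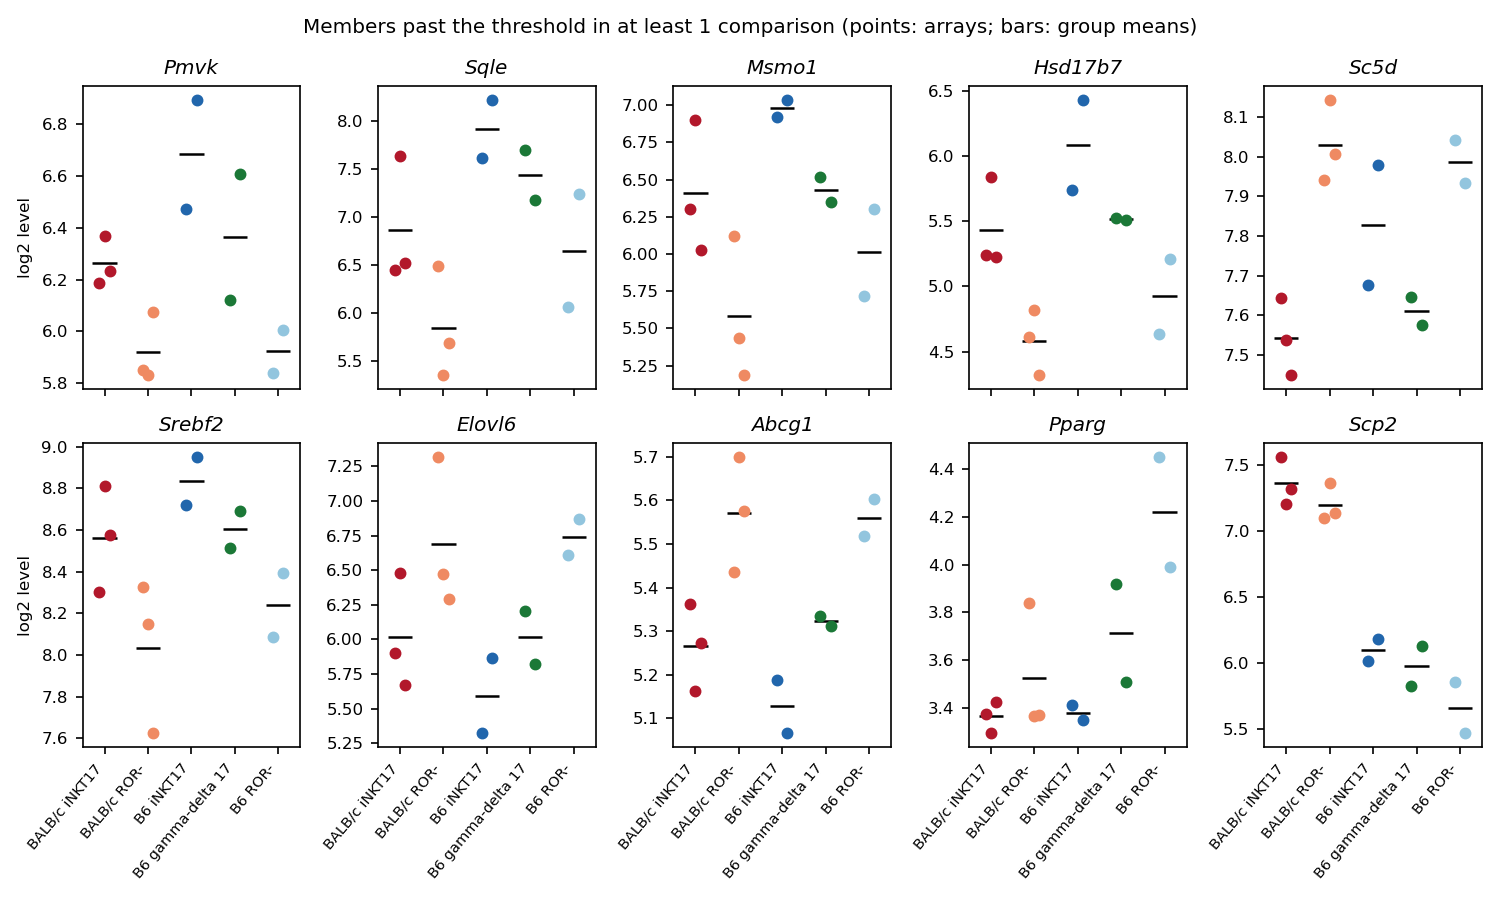
Log2 level on each array (points) and group mean (bars) of the 10 members past the threshold in at least 1 comparison, by group; each panel has its own axis. Hsd17b7 separates all iNKT17 arrays from all ROR- arrays, by very little across strains. Abcg1 separates them the other way, also by little, and Scp2 separates the strains.

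Of the regulators, the gene for SREBP-2 itself rose. Srebf2 was at 8.30, 8.81 and 8.58 on BALB/c iNKT17 arrays, against 8.33, 8.15 and 7.63 on BALB/c ROR- arrays, and at 8.72 and 8.95 on B6 iNKT17 arrays, against 8.09 and 8.40 on B6 ROR- arrays. BALB/c iNKT17 replicate 1 lay just under BALB/c ROR- replicate 1, and the B6 groups did not overlap. The difference was 0.56 ± 0.15 (SE, adjusted p = 0.0293). It no longer passed without BALB/c iNKT17 replicate 2 (0.0627), BALB/c iNKT17 replicate 3 (0.0602), B6 ROR- replicate 1 (0.14), B6 iNKT17 replicate 1 (0.052) or B6 iNKT17 replicate 2 (0.123). Insig1, the sterol sensor that retains SREBP and is also an SREBP target, differed by 0.67 (adjusted p = 0.197), Srebf1, which drives fatty acid synthesis, by 0.20 (0.229), and Scap, the escort protein, by -0.10 (0.625).

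The fatty acid synthesis genes gave no call. Fasn, the fatty acid synthase, was at 6.83, 7.42 and 6.93 on BALB/c iNKT17 arrays, against 7.63, 7.35 and 6.86 on BALB/c ROR- arrays, and at 7.52 and 8.07 on B6 iNKT17 arrays, against 7.17 and 7.91 on B6 ROR- arrays. The groups overlapped in both strains. Its difference was 0.02 with a 95% interval of -0.47 to 0.51. Acly, which makes cytosolic acetyl-CoA, differed by -0.12 (adjusted p = 0.73), and Acaca, the acetyl-CoA carboxylase, by 0.34 (0.0525).

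Elovl6, which lengthens 16-carbon fatty acids, fell in iNKT17 cells. Its levels were 5.90, 6.48 and 5.67 on BALB/c iNKT17 arrays, against 7.32, 6.47 and 6.29 on BALB/c ROR- arrays, and 5.32 and 5.86 on B6 iNKT17 arrays, against 6.61 and 6.87 on B6 ROR- arrays. BALB/c iNKT17 replicate 2 lay above 2 BALB/c ROR- arrays, and the B6 groups were apart. The difference was -0.91 ± 0.22 (SE, adjusted p = 0.0176), lost without B6 ROR- replicate 2 (0.0704) or B6 iNKT17 replicate 1 (0.0832). Elovl5, an elongase of polyunsaturated fatty acids, differed by -0.32 (adjusted p = 0.0511) and the desaturase Fads1 by 0.54 (0.126). The desaturases Scd1 (2.84 to 3.23) and Fads2 (2.95 to 3.45) were at or below the dim level on all 12 arrays.

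None of the 5 fatty acid oxidation members passed the test in limma, and 3 of the 5 had an unadjusted p under 0.05. Cpt1a, the mitochondrial entry step, was at 7.10, 7.02 and 7.08 on BALB/c iNKT17 arrays, against 7.43, 7.33 and 7.37 on BALB/c ROR- arrays, and at 7.09 and 6.70 on B6 iNKT17 arrays, against 7.39 and 6.97 on B6 ROR- arrays. The BALB/c groups were apart by little and the B6 groups overlapped, with a difference of -0.30 ± 0.11 (SE, adjusted p = 0.0954) that passed only without B6 ROR- replicate 2 or B6 iNKT17 replicate 1. Cpt2, Acadm, Acadl and Hadha, the inner carnitine transferase and 3 enzymes of beta-oxidation, differed by 0.16 to 0.27, with adjusted p between 0.152 and 0.288.

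The sterol exporter Abcg1 fell, the lipid receptor Pparg passed the threshold as lower, and the exporter Abca1 did not pass. Abcg1, which exports cholesterol to lipoproteins and is a target of the sterol receptor LXR, was at 5.36, 5.16 and 5.27 on BALB/c iNKT17 arrays, against 5.44, 5.70 and 5.58 on BALB/c ROR- arrays. It was at 5.19 and 5.07 on B6 iNKT17 arrays, against 5.52 and 5.60 on B6 ROR- arrays. All iNKT17 arrays lay below all ROR- arrays, by little, and Abcg1 fell by 0.37 (SE 0.09, adjusted p = 0.0144). The call ended without B6 ROR- replicate 2 (0.06) or B6 iNKT17 replicate 2 (0.0717). Abca1, another cholesterol exporter, was close to the dim level at 3.76, 3.85 and 3.78 on BALB/c iNKT17 arrays, against 3.73, 4.32 and 4.28 on BALB/c ROR- arrays, and 3.65 and 3.84 on B6 iNKT17 arrays, against 4.13 and 3.81 on B6 ROR- arrays. The groups overlapped in both strains and the difference was -0.27 (adjusted p = 0.22), which passed without BALB/c ROR- replicate 1 (0.0308).

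Pparg, a nuclear receptor for fatty acids, was near the dim level on most arrays. It was at 3.37, 3.29 and 3.42 on BALB/c iNKT17 arrays, against 3.84, 3.37 and 3.37 on BALB/c ROR- arrays, and at 3.41 and 3.35 on B6 iNKT17 arrays, against 4.45 and 3.99 on B6 ROR- arrays. All iNKT17 arrays were at or below 3.45 and the B6 ROR- arrays were above it, while the BALB/c groups overlapped. The difference was -0.50 ± 0.13 (SE, adjusted p = 0.0282) and was lost without BALB/c iNKT17 replicate 1 (0.0535), BALB/c iNKT17 replicate 2 (0.0589), B6 iNKT17 replicate 1 (0.0718), B6 iNKT17 replicate 2 (0.0984) or B6 ROR- replicate 1 (0.15). Pparg entered the test through ROR- and gamma-delta 17 arrays alone, so its call is no support for a difference. Its levels in iNKT17 cells are bounds, and the size of this difference is uncertain.

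Within single strains fewer members passed. In BALB/c cells 2 of 33 did, against 6.97% of all genes: Hsd17b7 rose by 0.85 (adjusted p = 0.0491) and Sc5d fell by 0.49 (adjusted p = 0.0254). The Hsd17b7 call ended with 8 of the 12 arrays left out singly, with adjusted p of 0.0548 to 0.173, the exceptions being the B6 iNKT17 and B6 ROR- arrays. The Sc5d call ended without BALB/c ROR- replicate 2 (0.0909), BALB/c ROR- replicate 3 (0.0536), BALB/c iNKT17 replicate 2 (0.0756) or BALB/c iNKT17 replicate 3 (0.115). In B6 cells 3 of 33 passed, against 5.99% of all genes: Pmvk rose by 0.76 (adjusted p = 0.0358), Hsd17b7 rose by 1.16 (0.0319) and Pparg fell by 0.84 (0.0325). The Pparg call is no support for a difference here either. All 3 B6 calls ended without B6 iNKT17 replicate 2 (adjusted p = 0.318 for Pmvk, 0.299 for Hsd17b7 and 0.184 for Pparg), and likewise when B6 ROR- replicate 1 was dropped (0.246, 0.297 and 0.308 in the same order). The Pmvk call also ended without B6 ROR- replicate 2 (0.0949), BALB/c iNKT17 replicate 1 (0.052) or BALB/c iNKT17 replicate 3 (0.0567), and the Pparg call without B6 iNKT17 replicate 1 (0.121), BALB/c iNKT17 replicate 1 (0.0501) or BALB/c iNKT17 replicate 3 (0.0507). The median difference of the 14 sterol enzymes was 0.60 in BALB/c and 0.68 in B6, against 0.0043 and -0.0052 over all genes, and with the cell cycle level as a covariate it was 0.38 in BALB/c and 0.30 in B6. In B6 both iNKT17 arrays exceeded both ROR- arrays for 11 of the 14, an arrangement seen for 22.5% of all genes.

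Whether the iNKT17 difference itself depended on strain was tested as an interaction. None of the 33 members passed in limma, 1 had an unadjusted p under 0.05 (Pparg, 0.68 ± 0.27 SE, adjusted p = 0.999), and 0.084% of all genes passed. For Hsd17b7 the BALB/c difference minus the B6 difference was -0.31, with a 95% interval of -1.11 to 0.49. For Sqle it was -0.24, with an interval of -1.62 to 1.13, so strain differences of more than 1 log2 unit are inside the interval.

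**Figure D3:**
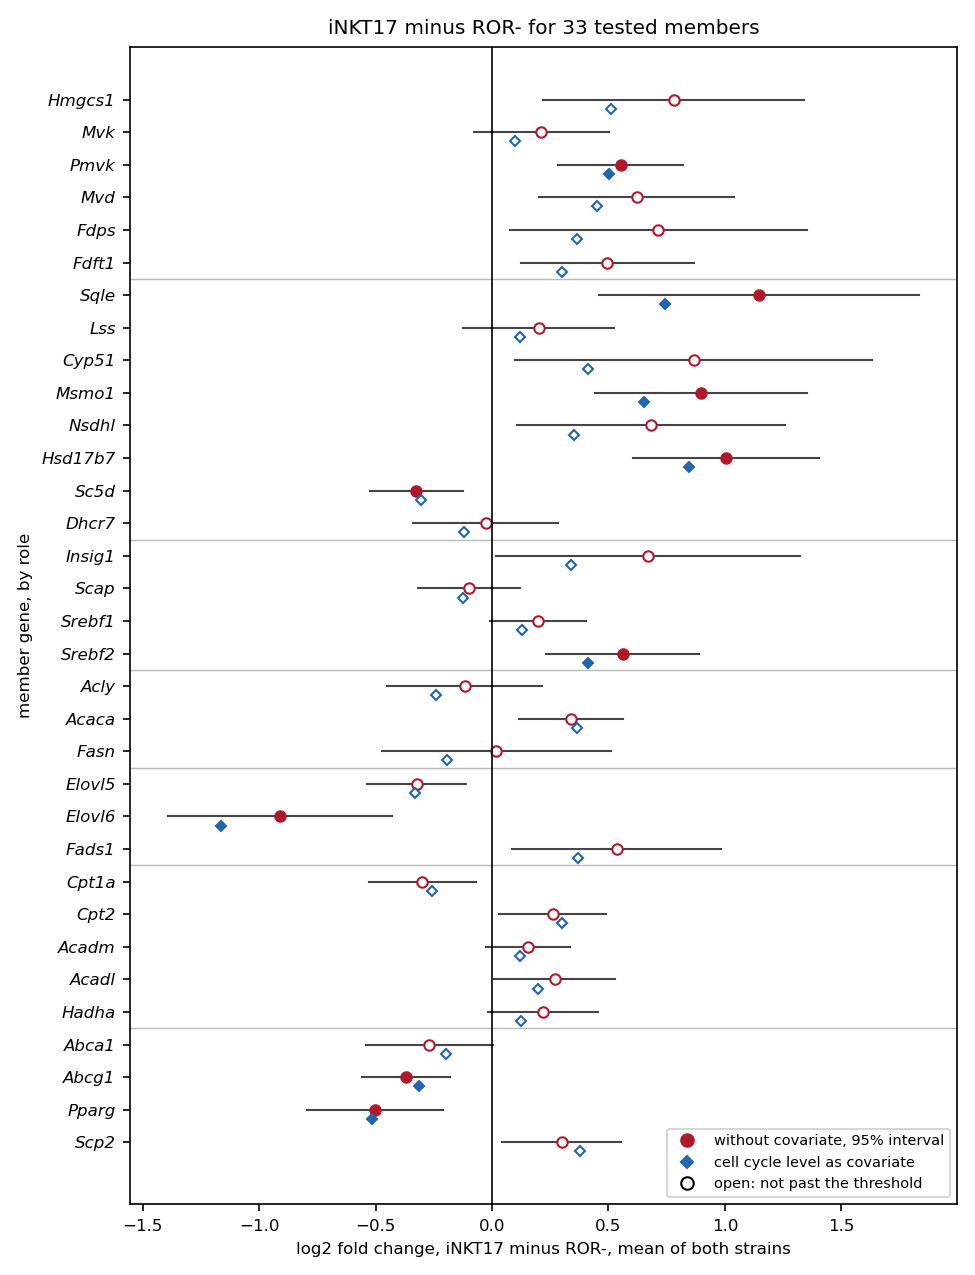
Log2 difference of iNKT17 minus ROR- cells, averaged over both strains, for the 33 tested members by role, with 95% intervals (circles), and the same difference with the cell cycle level of the array as a covariate (diamonds); filled symbols passed an adjusted p of 0.05. The sterol enzymes other than Sc5d and Dhcr7 lie to the right of 0 and move toward 0 with the covariate, while Elovl6 moves away from 0.

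The arrays differed in the expression of cell cycle genes, so that level was set beside the sterol genes. The cell cycle level, the mean log2 level of 40 tested genes of replication and mitosis, was 5.51, 7.82 and 6.19 on BALB/c iNKT17 arrays, against 7.15, 5.41 and 5.58 on BALB/c ROR- arrays. It was 7.96 and 8.75 on B6 iNKT17 arrays and 7.86 and 7.97 on gamma-delta 17 arrays, against 7.04 and 8.03 on B6 ROR- arrays. The B6 arrays were high as a set, and each BALB/c group held 1 high array. The mean level of the 14 sterol enzymes was 6.39, 7.01 and 6.33 on BALB/c iNKT17 arrays, against 6.42, 6.03 and 5.85 on BALB/c ROR- arrays, and 6.91 and 7.38 on B6 iNKT17 and 6.84 and 6.66 on gamma-delta 17 arrays, against 6.28 and 6.73 on B6 ROR- arrays. In 4 of the 5 groups the array with the highest cell cycle level also had the highest sterol synthesis level, gamma-delta 17 being the exception. Mvk, Mvd and Nsdhl had their highest array in common with the cell cycle level in all 5 groups and Sc5d in 1. With so few arrays in a group, such matches also arise often by chance. How often genes outside sterol synthesis match was not tested, so these counts are descriptions only.

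**Figure D4:**
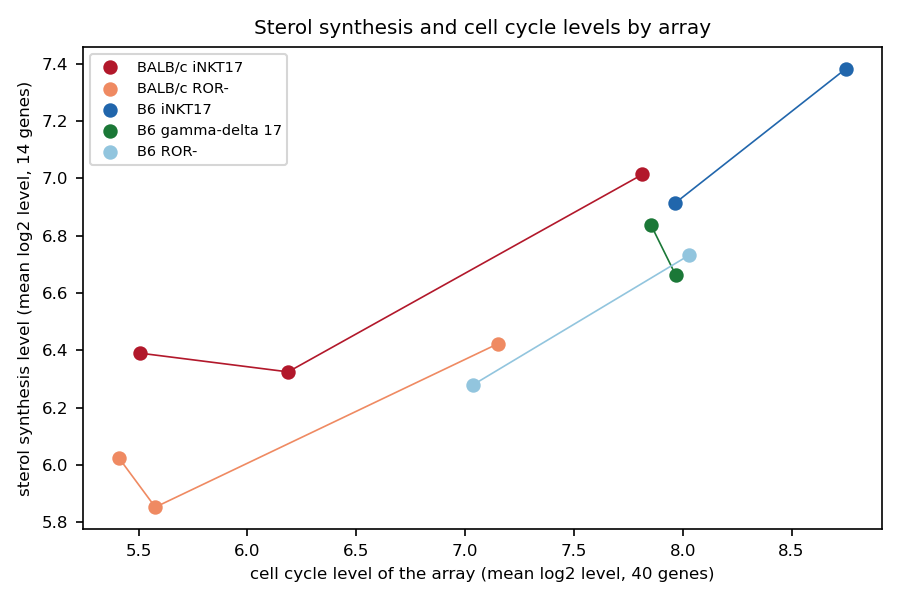
Mean log2 level of the 14 sterol synthesis enzymes (vertical axis) against the mean log2 level of 40 cell cycle genes (horizontal axis) on each of the 12 arrays, with arrays of 1 group joined by a line. At a cell cycle level near 8, BALB/c iNKT17 replicate 2 (7.01), B6 iNKT17 replicate 1 (6.91) and gamma-delta 17 replicate 1 (6.84) lie above B6 ROR- replicate 2 (6.73). Gamma-delta 17 replicate 2 (6.66) lies below it.

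With the cell cycle level as a covariate, 8 members passed in the mean over strains, where 11.7% of all genes did. These were Pmvk (0.50), Sqle (0.74), Msmo1 (0.65), Hsd17b7 (0.85) and Srebf2 (0.41), which were higher, and Elovl6 (-1.16), Abcg1 (-0.31) and Pparg (-0.52), which were lower. Sc5d no longer passed (adjusted p = 0.0843). In BALB/c cells 5 members passed, against 7.88% of all genes: Sqle (0.74), Msmo1 (0.65) and Hsd17b7 (0.74) were higher and Sc5d (-0.47) and Elovl6 (-0.86) lower. In B6 cells 3 passed, against 6.21% of all genes: Hsd17b7 (0.96) was higher and Elovl6 (-1.47) and Pparg (-0.86) were lower, while Pmvk did not pass (adjusted p = 0.0638). The Pparg calls, as without the covariate, are no support for a difference.

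The slope of each gene on the cell cycle level within groups was then read from the same fit, a step chosen after the data were seen. Of the 33 members 7 had a positive slope with an adjusted p under 0.05 and none a negative one, against 2.06% of all genes with a positive slope and 0.432% with a negative one. They were Cyp51 (0.71 log2 units per unit of cell cycle level), Sqle (0.63), Fdps (0.54), Nsdhl (0.51), Elovl6 (0.40), Msmo1 (0.38) and Fdft1 (0.31). The slopes of Insig1 (0.51, adjusted p = 0.0657), Hsd17b7 (0.25) and Pmvk (0.07) did not pass. Elovl6 had a positive slope and a negative iNKT17 difference. The count rested on few arrays: it was 0 without BALB/c iNKT17 replicate 2, 2 (Cyp51 and Sqle) without BALB/c ROR- replicate 1, 3 without either B6 ROR- array, 4 without either B6 iNKT17 array and 5 to 8 without any other array.

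The strains differed in a single member. Scp2, the sterol carrier protein of peroxisomes, was at 7.56, 7.21 and 7.32 on BALB/c iNKT17 arrays, against 6.01 and 6.18 on B6 iNKT17 arrays, and at 7.10, 7.36 and 7.14 on BALB/c ROR- arrays, against 5.85 and 5.47 on B6 ROR- arrays. The B6 gamma-delta 17 arrays, at 5.82 and 6.13, lay with the other B6 arrays, and no B6 array came within the BALB/c range. BALB/c cells exceeded B6 cells by 1.27 ± 0.17 (SE, adjusted p = 0.00252) in iNKT17 cells, where 1.48% of all genes passed, and by 1.54 ± 0.17 (SE, adjusted p = 0.000725) in ROR- cells, where 1.22% passed. Both calls held under all 23 alternative settings. With iNKT17 and ROR- cells of 1 strain compared, Scp2 differed by 0.16 in BALB/c (adjusted p = 0.647) and 0.43 in B6 (adjusted p = 0.257).

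No sterol enzyme passed the test between strains. In iNKT17 cells none of the 14 passed in limma and 7 had an unadjusted p under 0.05; all 14 differences of BALB/c minus B6 were below 0, with a median of -0.47, while 44.7% of all genes were below 0. With the cell cycle level as a covariate 7 of the 14 were below 0, 1 had an unadjusted p under 0.05 and the median was 0.02. Cyp51 differed by -1.25 (adjusted p = 0.302), Sqle by -1.05 (0.344) and Fdps by -1.02 (0.316). In ROR- cells 12 of the 14 differences were below 0, with a median of -0.43, none passed and 1 (Cyp51, -1.22) had an unadjusted p under 0.05. With the covariate 3 of the 14 were below 0, none had an unadjusted p under 0.05 and the median was 0.06. The 40 cell cycle genes were likewise all below 0 in both comparisons, with medians of -1.88 in iNKT17 and -1.49 in ROR- cells, none of them past the threshold, although 38 in iNKT17 and 23 in ROR- cells had an unadjusted p under 0.05.

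Gamma-delta 17 cells of B6 mice were compared with ROR- and iNKT17 cells of the same strain, and these comparisons share arrays. No member passed in gamma-delta 17 minus ROR- cells, where 6.02% of all genes did in limma, and 4 members had an unadjusted p under 0.05. With the cell cycle level as a covariate 9 of the 14 sterol enzymes were above 0, against 51.7% of all genes. Their median was 0.13. Sqle was at 7.70 and 7.18 on gamma-delta 17 arrays, against 6.06 and 7.24 on ROR- arrays, with overlap and a difference of 0.79 ± 0.49 (SE). Hsd17b7 was at 5.52 and 5.51 on gamma-delta 17 arrays, above both ROR- arrays at 4.64 and 5.21, a difference of 0.59 (adjusted p = 0.302). Elovl6 was at 6.21 and 5.82 on gamma-delta 17 arrays, below both ROR- arrays at 6.61 and 6.87, a difference of -0.72 (adjusted p = 0.293) that passed with the cell cycle level as a covariate (-0.87, adjusted p = 0.0258), where 7.48% of all genes did. Of the other members, Hmgcs1 was at 8.49 and 7.59, Cyp51 at 6.92 and 6.46, Srebf2 at 8.51 and 8.69 and Fasn at 8.15 and 7.35 on gamma-delta 17 arrays. Cpt1a was at 6.94 and 6.93, Abca1 at 3.68 and 3.67, Abcg1 at 5.33 and 5.31 and Pparg at 3.92 and 3.51 on the same arrays, and Pmvk at 6.12 and 6.61, Msmo1 at 6.52 and 6.35 and Sc5d at 7.65 and 7.58. Replicate 1 was higher in several members, among them Hmgcs1, Fasn, Sqle, Cyp51, Fdps (8.33 against 7.78) and Pparg. It was lower in others, among them Pmvk and Mvd (6.65 against 7.04).

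In iNKT17 minus gamma-delta 17 cells no member passed in limma, 1 had an unadjusted p under 0.05, and 0.168% of all genes passed. All 14 sterol enzymes were above 0, with a median of 0.38 and a range of 0.20 to 0.65, against 50.9% of all genes above 0. For 8 of the 14 both iNKT17 arrays lay above both gamma-delta 17 arrays, an arrangement seen for 20.3% of all genes in that direction. The 95% interval of Hsd17b7 ran from -0.05 to 1.19 and that of Sqle from -0.59 to 1.55, so differences of the size seen against ROR- cells lie inside them. The cell cycle genes had a median of 0.43 in this comparison.

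Beyond the members, 77 further genes of the same pathways were listed and 58 were tested. In iNKT17 minus ROR- cells over both strains, 6 of these rose and 6 fell, against 6.49% of all genes higher and 5.81% lower. Among 8 other genes of sterol synthesis and sensing, Ebp, the sterol isomerase, rose by 0.40 (adjusted p = 0.0407). Among 12 genes of sterol uptake, storage and oxysterols, the lipoprotein receptor Lrp8 (0.53, adjusted p = 0.0362) and the lysosomal lipase Lipa (0.57, 0.0368) rose and Mylip, which degrades lipoprotein receptors, fell (-0.83, 0.0428). These 4 calls ended when single arrays were left out, for 9 of 12 arrays with Ebp, 6 with Lrp8, 7 with Lipa and 10 with Mylip. With the cell cycle level as a covariate the calls of Ebp (adjusted p = 0.0969, limma) and Lipa (0.0616) ended as well. The Mylip call ended under 6 of the 11 settings other than leaving out 1 array, the covariate not among them.

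The larger differences lay in fatty acid handling. Acss2, which makes acetyl-CoA from acetate and is an SREBP target, was at 4.57, 4.70 and 4.19 on BALB/c iNKT17 arrays, against 5.02, 5.06 and 5.06 on BALB/c ROR- arrays. It was at 5.09 and 5.08 on B6 iNKT17 and 5.21 and 5.05 on gamma-delta 17 arrays, against 7.19 and 6.61 on B6 ROR- arrays. The B6 ROR- arrays stood above all others. Acss2 was thus lower in iNKT17 cells (-1.19 over both strains, adjusted p = 7.1e-05, and -1.82 in B6, 0.000175), in gamma-delta 17 cells (-1.77, 0.00022) and in BALB/c relative to B6 ROR- cells (-1.85, 0.00035). In iNKT17 cells its direction was opposite to that of the sterol enzymes that rose. In BALB/c the difference was -0.56 (adjusted p = 0.0651), and the strain interaction of 1.25 ± 0.26 (SE) had an adjusted p of 0.198.

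Elovl7, an elongase of long-chain fatty acids, was at 3.52, 3.38 and 3.81 on BALB/c iNKT17 arrays, against 4.29, 4.43 and 4.20 on BALB/c ROR- arrays. It was at 3.68 and 3.70 on B6 iNKT17 and 4.64 and 3.79 on gamma-delta 17 arrays, against 5.45 and 5.50 on B6 ROR- arrays. Every iNKT17 and gamma-delta 17 array lay below the ROR- arrays of its strain, with differences of -1.26 in iNKT17 cells over both strains (adjusted p = 0.000146) and -1.26 in gamma-delta 17 cells (0.00652), the second of which ended without B6 ROR- replicate 2 (0.0542). In single strains the iNKT17 difference was -1.78 in B6 (0.00063) and -0.74 in BALB/c (0.0389). The BALB/c call ended for 9 of 12 arrays left out. BALB/c ROR- cells were 1.17 log2 units below B6 ROR- cells (difference -1.17, adjusted p = 0.0221). That strain call ended without BALB/c ROR- replicate 3 (0.0796) or without either B6 ROR- array. It also ended with the cell cycle level as a covariate (0.0591) or with replicate number as a block (0.0501). Dgat1, which forms triglyceride, rose by 0.69 (adjusted p = 0.00528) and the phosphatidate phosphatase Lpin2 by 0.42 (0.0163), the Lpin2 call ending without B6 iNKT17 replicate 1 (0.081) or B6 ROR- replicate 2 (0.0697) and with the mean of probe sets (0.28, adjusted p = 0.265).

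**Figure D5:**
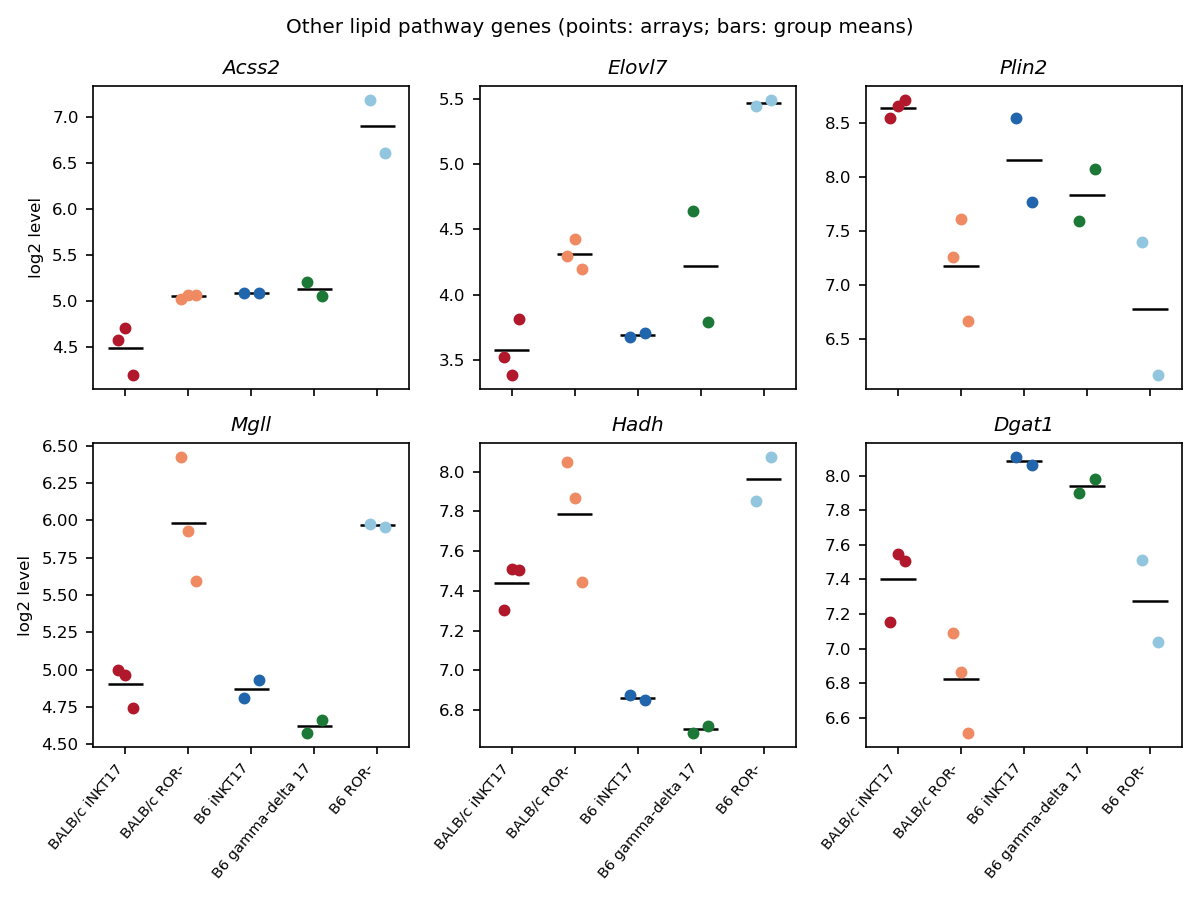
Log2 level on each array (points) and group mean (bars) of the 6 other pathway genes with an adjusted p under 0.01 in iNKT17 minus ROR- cells over both strains; each panel has its own axis. Mgll is lower on every iNKT17 and gamma-delta 17 array than on any ROR- array, and Acss2 and Elovl7 are highest on the B6 ROR- arrays.

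Plin2, the coat protein of lipid droplets, rose and the lipase Mgll fell in iNKT17 cells. Plin2 was at 8.55, 8.66 and 8.71 on BALB/c iNKT17 arrays, against 7.25, 7.61 and 6.67 on BALB/c ROR- arrays, and at 8.55 and 7.77 on B6 iNKT17 arrays, against 7.40 and 6.16 on B6 ROR- arrays. Mgll, which splits monoglycerides, was at 5.0, 4.96 and 4.74 on BALB/c iNKT17 arrays, against 6.42, 5.93 and 5.59 on BALB/c ROR- arrays, and at 4.81 and 4.93 on B6 iNKT17 and 4.58 and 4.66 on gamma-delta 17 arrays, against 5.98 and 5.95 on B6 ROR- arrays. Neither gene overlapped between iNKT17 and ROR- cells in either strain. Over both strains Plin2 differed by 1.42 ± 0.26 (SE, adjusted p = 0.00285) and Mgll by -1.09 ± 0.14 (SE, 0.00025), and the beta-oxidation enzyme Hadh by -0.72 (0.00146). The calls for Acss2, Elovl7, Dgat1, Plin2, Mgll and Hadh in this comparison held under all 23 alternative settings. The fatty acid transporter Slc27a1 differed by -0.41 (0.0427), a call that ended for 9 of 12 arrays left out. The Slc27a1 call also ended with the cell cycle level as a covariate (adjusted p = 0.0792, limma). In BALB/c alone Plin2 (1.46, adjusted p = 0.0168) and Lipa (0.77, 0.0436) rose and Mgll fell (-1.08, 0.00264), and in B6 alone Dgat1 rose (0.81, 0.0467) and Hadh (-1.10, 0.00344) and Mgll (-1.10, 0.0096) fell. Leaving out single arrays ended the Plin2 call for 3 arrays, Lipa and Dgat1 for 8 each and the B6 Mgll call for 4. The B6 Dgat1 call also ended with the cell cycle level as a covariate (adjusted p = 0.0823, limma).

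In gamma-delta 17 minus ROR- cells 8 of the 58 other pathway genes passed, 2 higher and 6 lower, where 6.02% of all genes did. The scavenger receptor Cd36, a fatty acid carrier, was at 3.80 and 5.91 on gamma-delta 17 arrays, against 2.59 and 2.74 on ROR- arrays. It is 1 of the 2 counted as higher, but only the gamma-delta 17 arrays lay above the dim level, so it entered the test through the group where it was high and its call is no support for a difference. The higher value was on replicate 2, and the source of the Cd36 signal was not tested. Mgll fell by 1.35 (0.00256) and Hadh by 1.26 (0.00132) in gamma-delta 17 cells, and both calls held under all 23 alternative settings. Acsl4, an acyl-CoA synthetase, rose by 0.74 (0.0231), a call that ended without any 1 of the 4 arrays compared (adjusted p of 0.101 to 0.128). Npc1, which moves cholesterol out of lysosomes, fell by 0.87 (0.0421), and the triglyceride lipase Pnpla2 fell by 0.59 (0.0432), calls that ended for 8 and 9 of 12 arrays left out. With the mean of its probe sets Npc1 differed by -0.43 and did not pass (adjusted p = 0.187).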

How the data were processed

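The deposited values were log2 expression values of 41345 probe sets on 12 arrays, summarised by the authors with oligo, per the submitters' processing notes; its version and settings were not given in the sources used here, and the log2 base was read from the range of the values. Array medians were 4.10 to 4.30, and no further normalization was applied. Other per-sample columns not used numbered 0. The platform table gave 23521 probe sets 1 symbol, 1814 several and 16010 none. Of 22180 named genes 1082 had several probe sets, and the one with the highest mean was used; Scap was the 1 member among them, with its other probe set used in an alternative. No level of 1 probe set was set against that of another.

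Genes above the 30th percentile of named probe sets (3.45 on the log2 scale) on at least 2 arrays were tested, 16667 in all. A group-means model over all 12 arrays was fitted with limma 3.58.1 in R 4.3.3 (lmFit and eBayes), with Benjamini-Hochberg adjustment over all tested genes and a threshold of 0.05. The number of arrays limits the precision, and 95% intervals are from the same fit. The code was tested on simulated data.

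The members, the lists and the named genes were chosen with earlier results of these data known. Every array value is given for members past the threshold in any comparison and for the fixed genes Hmgcs1, Sqle, Cyp51, Srebf2, Fasn, Cpt1a, Abca1 and Abcg1, and up to 4 called genes are named per other pathway list and comparison. The cell cycle level is the mean of 40 tested genes of 42 listed. Samples with the same replicate number did not deviate together as a rule: over 21 such pairs r was -0.46 to 0.47, and 8 pairs exceeded 0.1. The B6 iNKT17 and B6 ROR- arrays of the same number were among the highest, at 0.47. In groups of 2 arrays the deviations mirror each other, so the pairs are not independent and cannot decide whether samples were paired. The main fit has no replicate block, and a block was run as an alternative. Alternatives were array centring, quantile normalization, no filter and a stricter filter, the mean of probe sets, array weights, a trended robust prior, fits of only the groups compared, the replicate block, the cell cycle level as a covariate and leaving out each array. Leaving out BALB/c ROR- replicate 2 together with gamma-delta 17 replicate 1, and the slope on the cell cycle level, were chosen after seeing the data.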

Additional observations from a re-analysis of the deposited data

How the results depend on the processing

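With 2 or 3 arrays a group, the count of members past the threshold depended on single arrays. In iNKT17 minus ROR- cells over both strains it was 9, between 3 and 13 with an array left out (5 without BALB/c iNKT17 replicate 2, and 3 without either B6 iNKT17 replicate 2 or B6 ROR- replicate 1), and 7 to 12 under the 11 other settings. In BALB/c it was 2, between 0 and 4 with an array left out, 1 with array medians centred, quantile normalization, no filter on dim genes or array weights, 0 with only the groups compared or with BALB/c ROR- replicate 2 and gamma-delta 17 replicate 1 both left out, and 5 with the cell cycle level as a covariate. In B6 it was 3, between 0 and 4 with an array left out, and 1 with only the groups compared. Between strains the count was 1 in iNKT17 cells under every setting run, and 1 in ROR- cells, where it was 1 to 2 with an array left out. In gamma-delta 17 minus ROR- cells it was 0, and 1 with the cell cycle level as a covariate. The interaction and iNKT17 minus gamma-delta 17 gave 0 under every setting run. The difference of Fasn in iNKT17 minus ROR- cells over both strains changed sign, from 0.02 in the reported fit, to -0.0123 with quantile normalization, -0.0615 with array weights and -0.20 with the cell cycle level as a covariate, and ranged from -0.17 to 0.20 with an array left out. The replicate number as a block gave 9, 2, 3, 0, 1, 1, 0 and 0 members past the threshold in the 8 comparisons, the same counts as without it, although Sc5d no longer passed over both strains (adjusted p = 0.063), nor did some other pathway genes, such as Npc1 in gamma-delta 17 minus ROR- cells (0.0565). Leaving out both arrays with markers of another program ended the calls of Sqle (adjusted p = 0.0829), Srebf2 (0.0517) and Sc5d (0.098) over both strains. The causes of these changes were not tested. Values near the dim level, as for Pparg, Abca1 and Elovl7, limit the size of their differences.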
